A study of Solanum lycopersicum and Solanum tuberosum and Capsicum annuum and Nicotiana tabacum with 10 samples.

Results

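Mature leaves of tomato and petunia, a pair of species of the nightshade family, were compared clone by clone on potato cDNA arrays. The comparison used the 2 arrays on which tomato leaf RNA was hybridized together with potato leaf RNA and the 2 arrays on which petunia leaf RNA was hybridized together with it, and it held each clone that these 4 arrays all measured. There were 8951 of the 15360 clone positions (58.3%), or 81.7% of the 10954 clones with a value on any of the 10 arrays of the series, which also covered pepper, tobacco and N. benthamiana. Tomato plants (named Lycopersicum esculentum in the labels), petunia plants (no species or cultivar given) and potato plants had no treatment and were grown at 25°C with 16 h of light and 8 h of darkness, and leaves were taken after 4 to 6 weeks. On each array the query species carried Cy3 and potato Cy5. One potato extract served all arrays of replicate 1 and another served all arrays of replicate 2, so subtracting the tomato array from the petunia array of the same replicate removes potato and dye from the comparison. Whether a species' 2 extracts were taken from different plants is not in the labels, and the p-values cover only the spread among these extracts, possibly a technical one.

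The deposited value of a spot is a log2 ratio of its channels. No source used here gives its direction. A positive ratio is likely a brighter signal in potato, which rests on the array titles, where potato comes first, and on the skew of the ratios, which was positive on all 4 arrays (0.681 to 1.08). Petunia minus tomato is therefore likely log2 of the tomato signal over the petunia signal, and this difference was also skewed to the positive side, by 0.425 in replicate 1 and 0.581 in replicate 2. Every statement below on which species was higher keeps to this reading and would turn around with the opposite one.

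A leaf holds mostly mesophyll, whose chloroplasts capture light, fix carbon and store part of it as starch by day, beside epidermis with guard cells and vascular tissue. A cDNA array reads how strongly labeled RNA binds to a spotted copy of a transcript. When RNA of another species is hybridized to potato clones, a weak signal can come from few transcripts or from a transcript whose sequence departs from the potato clone, and these cannot be told apart here. Nor can fewer cells of a type and less RNA per cell. Because the values are ratios, they show no level of a leaf marker and do not allow levels of different clones to be ranked.

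Tomato gave values for 10439 and 10155 clones and petunia for 9426 and 10343 in replicates 1 and 2. The duplicate spots of a clone correlated at 0.97 and 0.973 across clones on the tomato arrays and at 0.956 and 0.947 on the petunia arrays, and their difference had an SD of 0.255 and 0.251 in tomato and of 0.335 and 0.371 in petunia. Across the 8951 clones the tomato arrays correlated with each other at 0.945 and the petunia arrays at 0.899, so that petunia was the less closely repeated species on both counts. A single gene symbol was given for 679 of these clones, belonging to 392 genes, several symbols for 45 and none for 8227. Of the 679, 125 clones of 81 genes had a name and the others a locus number only. Letters after a symbol tell apart the clones of a gene, and clones with several symbols are not named.

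Most clones gave similar signals in the leaves of both species. The median absolute difference was 0.461 on the log2 scale, 60.6% of clones lay within 1.5-fold and 83.6% within 2-fold. In replicate 1 alone 79.3% lay within 2-fold and in replicate 2 alone 84.5%. The difference of a clone varied between the replicates by a median of 0.295, and the differences of replicate 1 and replicate 2 correlated at 0.808 across clones, which are not independent of each other. The median of all differences was -0.12, slightly to the petunia side, and differences are given here without removing it.

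**Figure D1:**
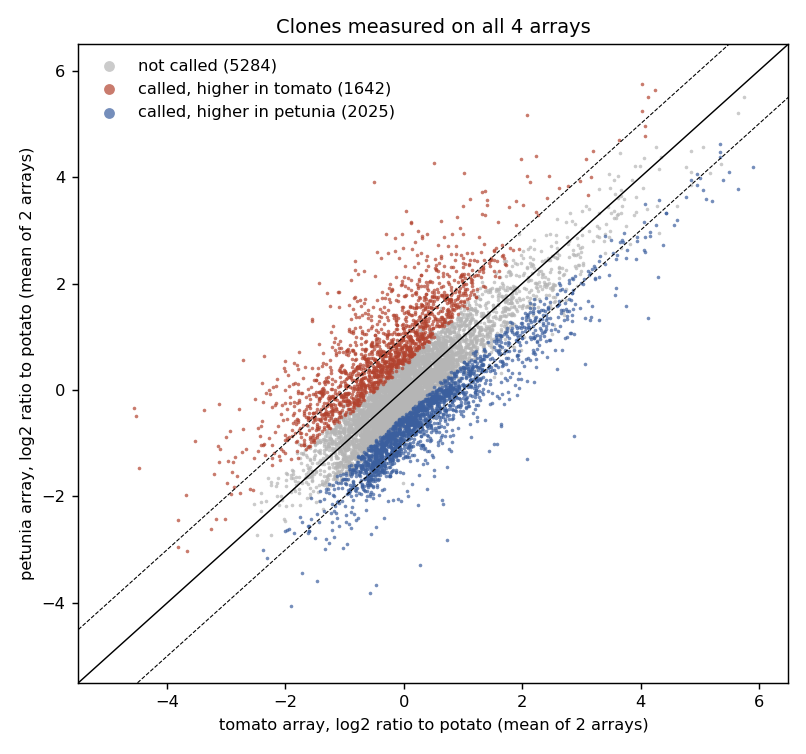
Mean log2 ratio to potato of the 2 tomato arrays (x axis) and of the 2 petunia arrays (y axis) for each of the 8951 clones; the solid line marks equal signal in both species and the dashed lines 2-fold. The 1642 clones called higher in tomato (red) lie above the line, the 2025 called higher in petunia (blue) below it, and the red points reach farther from it.

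At an adjusted p under 0.05 (limma with the replicate as a block, Benjamini-Hochberg over all 8951 clones), 3667 clones differed between tomato and petunia, which was 41% of those tested. A higher signal in tomato was found for 1642 clones (18.3%) and in petunia for 2025 (22.6%), with the same sign in both replicates for each of the 3667. That agreement follows largely from the test, which used the mean of these same 2 replicates. Clones named below for large called differences were picked on these arrays too. Where their species do not overlap, this describes the values and adds no support. Beyond 2-fold there were 1453 clones (16.2%), of which 792 were higher in tomato and 661 in petunia. Beyond 4-fold there were 132 against 33, and beyond 8-fold 19 against 6. The 2-fold count ran from 1314 to 1806 when 1 of the 4 arrays was left out, whereas the count of all calls dropped to 2030 without petunia replicate 1 and to 2198 without petunia replicate 2, and calls higher in petunia to 1273 without tomato replicate 1. With the arrays not paired by replicate 2016 clones were called. The order of the species in the number of all calls was not stable. The share higher in tomato was 44.8% here, but 49.9% without the pairing, 51.0% at an adjusted p under 0.01, 50.4% without tomato replicate 1, 52.2% without petunia replicate 1 and 49.5% without petunia replicate 2.

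**Figure D2:**
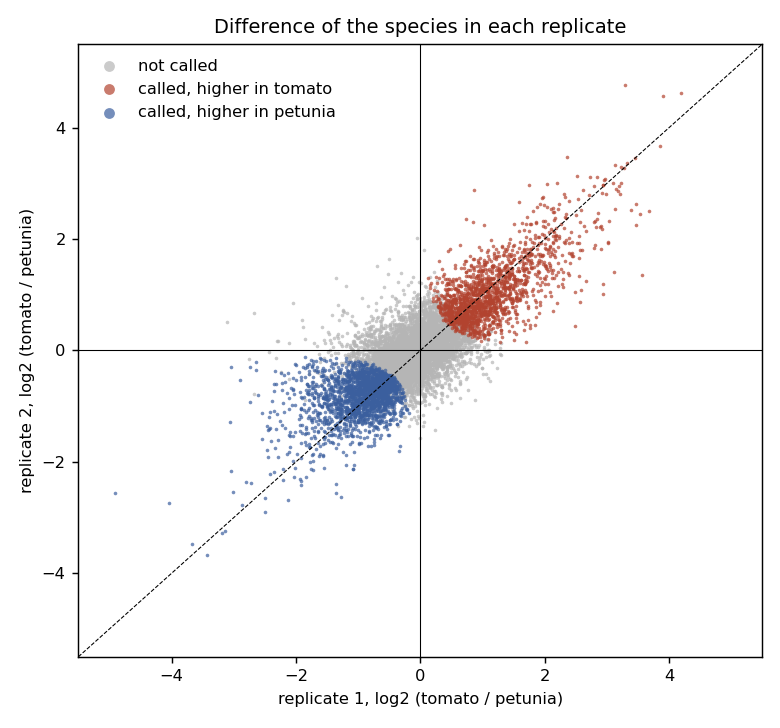
Log2 of tomato over petunia for each clone in replicate 1 (x axis) and replicate 2 (y axis), with the dashed line marking equal differences. Called clones lie in the upper right (red, higher in tomato) and lower left (blue, higher in petunia), and none of them has opposite signs in the 2 replicates, which follows largely from how they were called.

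Of the 165 clones beyond 4-fold, 38 had a single gene symbol, and of the 25 beyond 8-fold only 2 had one. The clone with the highest difference of all had no symbol. Its ratio to potato was -0.45 and -0.55 on the tomato arrays and 3.74 and 4.08 on the petunia arrays, a 21.3-fold difference (4.41 on the log2 scale, SE 0.212, adjusted p = 3e-06). Tomato thus matched potato closely while petunia lay far on the potato side. The clone with the lowest difference had no symbol either, with 3.95 and 1.79 in tomato and -0.97 and -0.78 in petunia (-3.74, SE 0.471), and its tomato arrays differed by over 2 units from each other. A steadier clone without a symbol on this side had 0.62 and -0.06 in tomato and -3.04 and -3.54 in petunia (-3.57, SE 0.185, adjusted p = 4.13e-06).

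Seen against potato, 76.3% of the clones lay within 2-fold in tomato and 70.4% in petunia. Among clones called beyond 2-fold and higher in tomato, the median ratio was -0.51 in tomato and 0.99 in petunia, so that petunia lay farther from potato, and 61.9% in tomato against 47.1% in petunia were within 2-fold of it. Among those higher in petunia, the medians were 0.61 in tomato and -0.71 in petunia, with 57.3% and 42.8% within 2-fold. These clones were chosen for a difference between tomato and petunia, which by itself puts the species at opposite ends, so that medians of the other query species in between are no finding. For the 722 clones higher in tomato that had a value on all 10 arrays, the medians ran from -0.45 in tomato over 0.39 in pepper, 0.64 in N. benthamiana and 0.67 in tobacco to 1.08 in petunia, and for the 589 higher in petunia from 0.61 in tomato over -0.18 in pepper, -0.28 in N. benthamiana and -0.35 in tobacco to -0.71 in petunia.

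Among the clones with a gene name, the clone of MIP2 showed the largest difference. Its ratio to potato was 0.49 and 0.52 in tomato and 4.35 and 4.19 in petunia, a 13.6-fold difference (3.76, SE 0.199, adjusted p = 6.51e-06). The clone was closest to potato in tomato, with a mean of 2.09 in pepper and 3.45 in tobacco. A single array of N. benthamiana gave 4.08. The other MIP2 clone had no value on these 4 arrays.

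Both clones of PPO, polyphenol oxidase, the plastid enzyme that browns wounded tissue by oxidizing phenols, were higher in tomato. Clone A had -2.11 and -2.43 in tomato and 0.32 and -0.31 in petunia, and clone B -1.60 and -2.33 in tomato and 0.71 and -0.14 in petunia. The arrays of the species did not overlap in either clone, and tomato was above potato while petunia was close to it. The differences were 2.27 (SE 0.171) and 2.25 (SE 0.168), both about 4.8-fold, with adjusted p = 1.56e-05 and 1.46e-05. Against the mean of pepper, tobacco and N. benthamiana, clone A was higher by 1.83 in tomato (adjusted p = 7.3e-06) and fell by 0.44 in petunia (adjusted p = 0.0386).

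PPO belonged to the list of phenolic metabolism, of which 6 clones were tested, with 3 higher in tomato, none higher in petunia and 3 not called, around a median of 0.47. The share called was 50%, beside 41% of all clones and 52.8% of the 125 clones with a gene name. Of these 125, 41 were higher in tomato, 25 were higher in petunia and 59 were not called. The clones tested in this and the other lists all had a gene name, so the 125 are the nearer background for each list. FLS, flavonol synthase, which makes the flavonols that screen leaves from ultraviolet light, was the third call, with clone A at -0.87 and -2.30 in tomato and -0.08 and -0.60 in petunia (1.24, SE 0.224, adjusted p = 0.00188). The tomato arrays of this clone lay farther apart than the species did, and without the replicate block it was no longer called. The other FLS clones did not pass the test, at -0.40 and -0.30, and neither did SHKA, the first enzyme of the shikimate pathway, at -0.52 (adjusted p = 0.0612).

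All 3 clones tested for the light reactions, which belong to 2 genes, were higher in tomato, as were 18.3% of all clones, and their median was 0.88. THF1 is a plastid protein needed to form thylakoids and not itself a part of the light reactions. It had -1.34 and -1.38 in tomato and 0.80 and 0.58 in petunia, a 4.13-fold difference (2.05, SE 0.204, adjusted p = 6.58e-05). Its tomato arrays lay on the query side of potato and its petunia arrays on the potato side. PSBR, a small subunit of photosystem II, was smaller in its difference, at 0.88 (SE 0.253, adjusted p = 0.0187) in clone D and 0.52 (SE 0.182, adjusted p = 0.0412) in clone E. Clone D had 1.02 and 1.64 in tomato and 2.30 and 2.12 in petunia, and it fell to 0.39 without tomato replicate 1 and was not called then. Of the 7 clones of this list on the array, 4 of PSBR had no value on at least 1 of the 4 arrays. Only THF1 was called in this list without the replicate block and without tomato replicate 1 or petunia replicate 2.

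For carbon fixation, TK, the transketolase of the Calvin cycle, was tested with 2 clones. Clone B was higher in tomato, with -1.57 and -1.82 there and -1.17 and -0.71 in petunia (0.75, SE 0.205, adjusted p = 0.0144). Clone A had 0.56 and did not pass the test (adjusted p = 0.27), and its tomato arrays gave -1.03 and -2.46. TK clone B lost its call without tomato replicate 2 or petunia replicate 2.

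Of 7 clones tested for starch and sucrose metabolism, 5 were higher in petunia, none was higher in tomato and 2 were not called. This is 71.4% called beside 41% of all clones, of which 22.6% were higher in petunia, with a median of -0.83 against -0.12 for all clones. The list may miss genes of the pathway, and R1, called higher in tomato in both clones, was on no list. SS16, called higher in petunia in both tested clones at -0.988 and -0.846, was not on this list either. The 5 calls of the list include both clones of STUGE51, an epimerase of UDP sugars. STUGE51, a UDP-glucose epimerase, which interconverts UDP-glucose and UDP-galactose, had 2.43 and 1.69 in tomato and 1.32 and 0.999 in petunia in clone A (-0.90, SE 0.222, adjusted p = 0.00901), and clone B gave a difference of -0.98 (SE 0.308, adjusted p = 0.0266). Both species lay on the potato side in these clones, tomato farther than petunia. PAIN-1, the acid invertase that splits sucrose in the vacuole, had 1.25 and 1.98 in tomato and 0.30 and 1.22 in petunia. These arrays nearly touched, and the difference of -0.85 (SE 0.269, adjusted p = 0.0274) was called neither without the replicate block nor without tomato replicate 1 or either petunia array.

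GBSS, the starch synthase bound to granules, where it makes amylose, was far above potato in both species. Its clone A had -2.15 and -2.48 in tomato and -3.08 and -3.22 in petunia, a 1.78-fold difference toward petunia (-0.83, SE 0.194, adjusted p = 0.00696), while clone B had 0.05 and was not called. AMYA1, an alpha-amylase that breaks starch down, had 0.89 and 1.14 in tomato and 0.33 and 0.45 in petunia (-0.63, SE 0.167, adjusted p = 0.0132). STUGE45, another UDP-glucose epimerase, had 0.45 and was not called (adjusted p = 0.126). The 5 calls of the starch and sucrose list with the replicate block were 1 without it. They became 2 without tomato replicate 1, 0 without petunia replicate 1 and 1 without petunia replicate 2.

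**Figure D3:**
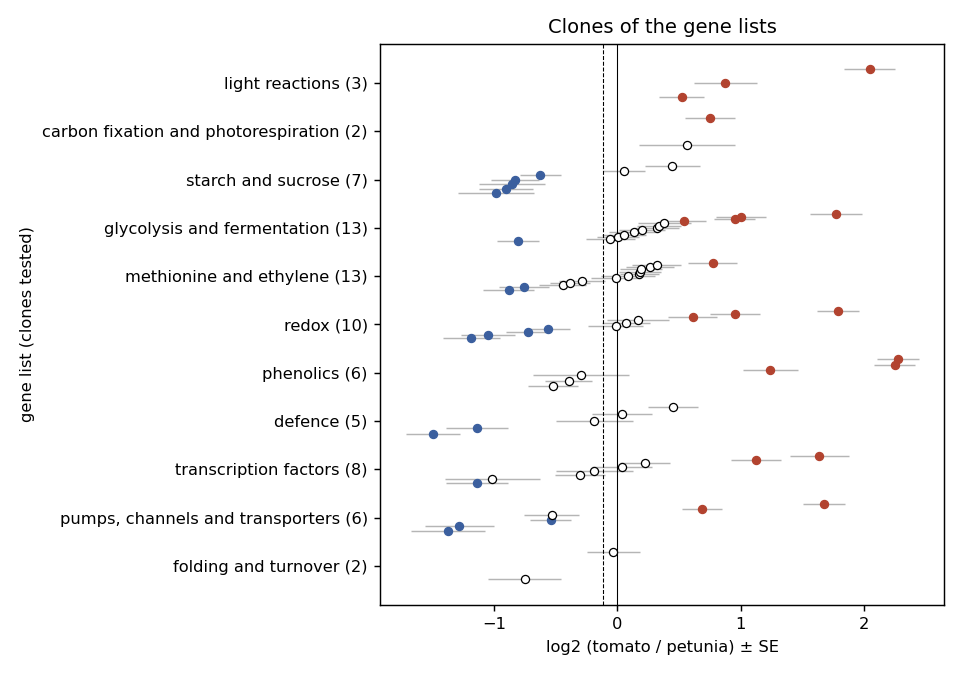
Log2 of tomato over petunia (x axis, bars: SE) for each clone tested in 11 gene lists (y axis, number of clones in brackets), with filled red points for clones called higher in tomato, blue for higher in petunia and open for not called. The dashed line is the median of all clones, -0.12; the starch and sucrose calls all lie left of it and those of the light reactions right of it.

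Of 13 clones for glycolysis and fermentation, 4 were higher in tomato, 1 was higher in petunia and 8 were not called. The share called was 38.5%, beside 41% of all clones and 52.8% of clones with a gene name. LPD2, lipoamide dehydrogenase, led with -2.03 and -2.08 in tomato and -0.18 and -0.38 in petunia (1.77, SE 0.209, adjusted p = 0.000164), with no overlap of the species. PDHE1-A, the E1 alpha subunit of pyruvate dehydrogenase, gave 1.001 in clone A (SE 0.201, adjusted p = 0.0033) and 0.38 in clone B, which did not pass the test. Neither LPD2 nor PDHE1-A is an enzyme of glycolysis or fermentation itself, and each gave 1 of the 4 calls higher in tomato. The list may also miss genes. GPI was not on it, with 1 of its 2 tested clones higher in tomato at 0.659 and the other not called at 0.33. Both clones of PGAM, phosphoglycerate mutase, were called, at 0.95 and 0.54. LDH-2, lactate dehydrogenase, was the clone higher in petunia, with 1.05 and 0.49 in tomato and 0.17 and -0.23 in petunia (-0.80, SE 0.171, adjusted p = 0.00438). None of the 5 tested clones of GAPDH, the glyceraldehyde-3-phosphate dehydrogenase, was called, with differences from -0.06 to 0.34, nor was PK, pyruvate kinase, at 0.01 (SE 0.17), or ADH1, alcohol dehydrogenase, at 0.13.

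The redox list split, with 3 of its 10 clones higher in tomato, 4 higher in petunia and 3 not called, or 70% called beside 41% of all clones. DHAR, dehydroascorbate reductase, which recycles vitamin C, gave opposite calls. Its clone B had -1.75 and -2.09 in tomato and 0.24 and -0.50 in petunia, a 3.46-fold difference toward tomato (1.79, SE 0.171, adjusted p = 5.52e-05), whereas clone C had 2.27 and 2.10 in tomato and 0.74 and 1.25 in petunia (-1.19, SE 0.233, adjusted p = 0.00367). The species did not overlap in either clone, but tomato was the brighter in clone B and the dimmer in clone C. Both DHAR2 clones were higher in tomato, at 0.95 and 0.61. AOX, the alternative oxidase that lets mitochondria respire without making ATP at the last steps, had -0.37 and -0.39 in tomato and -1.56 and -1.30 in petunia (-1.05, SE 0.218, adjusted p = 0.00391). CAT1 clone C, a catalase, followed at -0.72 and GRX2, a glutaredoxin, at -0.56, both higher in petunia. CAT1 clone B, at 0.17, and both clones of UCP, a mitochondrial uncoupling protein, at 0.07 and -0.02, were not called. Without petunia replicate 1 the calls of this list dropped to 1 higher in tomato and 2 higher in petunia, and DHAR kept both of its calls with any of the 4 arrays left out.

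The methionine and ethylene list held few calls, 1 higher in tomato and 2 higher in petunia of 13 clones, 23.1% beside the 41% of all clones. It may miss genes of this metabolism, and CBL, higher in petunia at -0.936 in 1 tested clone, was on no list. METK1, S-adenosylmethionine synthetase, which makes the donor of most methyl groups, was called in clone F (0.77, SE 0.199, adjusted p = 0.0111) but in none of its 5 other tested clones, which lay from -0.01 to 0.27. MS, methionine synthase, was called in clone A (-0.88, SE 0.205, adjusted p = 0.00688) and not in its 4 other clones, from -0.44 to 0.19. ERS, an ethylene receptor, had 1.49 and 1.17 in tomato and 0.62 and 0.54 in petunia, which was higher in petunia (-0.76, SE 0.2, adjusted p = 0.0124). All 3 calls of the list depended on single arrays. METK1 clone F was lost without tomato replicate 2 or petunia replicate 2, MS clone A without petunia replicate 1, ERS without petunia replicate 2, and both calls toward petunia without tomato replicate 1.

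Pumps, channels and transporters gave 2 clones higher in tomato, 3 higher in petunia and 1 not called, or 83.3% called beside 41% of all clones, and only 1 was higher in petunia without petunia replicate 1. PHA2, a proton pump of the plasma membrane, which energizes uptake into cells, had 1.09 and 0.26 in tomato and -0.83 and -0.57 in petunia in clone A, and 1.24 and 0.85 against -0.55 and 0.07 in clone C. Tomato was on the potato side in both clones and petunia at or below it. The differences were -1.38 (SE 0.301, adjusted p = 0.00507) and -1.28 (SE 0.28, adjusted p = 0.00498), and clone D, at -0.53, was not called (adjusted p = 0.0811). The potassium channels went separate ways. KST1, a channel of guard cells, was higher in petunia by a little, at 0.07 and -0.01 in tomato and -0.51 and -0.51 in petunia (-0.54, SE 0.167, adjusted p = 0.0254), a call that was lost when any 1 of the 4 arrays was left out, and SKT3 was higher in tomato (0.69, SE 0.162, adjusted p = 0.00714), though not without petunia replicate 2. XIP1-1-BETA, an aquaporin of the X intrinsic protein group, had -1.65 and -1.33 in tomato and 0.12 and 0.25 in petunia (1.68, SE 0.171, adjusted p = 0.000117).

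Of 8 clones of transcription factors 2 were higher in tomato, 1 was higher in petunia and 5 were not called, and of 5 defence clones, which share STWRKY8 and NAC2 with them, 2 were higher in petunia and 3 were not called. The shares called, 37.5% and 40%, were close to the 41% of all clones and below the 52.8% of clones with a gene name. Both clones of BEL5, a homeodomain protein known in potato for promoting tubers, were higher in tomato. Clone A had 0.35 and 0.02 in tomato and 1.76 and 1.89 in petunia (1.64, SE 0.238, adjusted p = 0.000568), and clone B gave 1.13 (SE 0.201). STWRKY8, a WRKY factor, was higher in petunia in clone A, with 2 and 2.60 in tomato and 1.02 and 1.31 in petunia (-1.14, SE 0.252, adjusted p = 0.00534), and at 0.04 in clone B, which was not called. The other clones of transcription factors did not pass the test, namely CO at -1.01 (SE 0.383, adjusted p = 0.0554), NAC2 at -0.19 and MADS16 at -0.30 and 0.23. POTLX-3, a lipoxygenase, the enzyme class that starts oxylipin synthesis, was the strongest defence call, with 1.57 and 1.86 in tomato and -0.18 and 0.61 in petunia (-1.50, SE 0.219, adjusted p = 0.000587). PR1B, a pathogenesis-related protein, lay on the potato side in both species and gave 0.45, not called (adjusted p = 0.102). The defence list may miss genes, and HPL, higher in tomato at 0.875 in 1 tested clone, was on no list. Neither clone of VPE2, a vacuolar protease, was called, at -0.75 and -0.03.

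Outside the lists, BCAT1, a branched-chain amino acid aminotransferase, was the named clone with the largest difference toward petunia. It had 1.38 and 1.11 in tomato and -0.40 and -0.63 in petunia, a 3.37-fold difference (-1.75, SE 0.168, adjusted p = 5.54e-05), while BCAT2, of the same family, had -0.11 and was not called. RSI5 followed, with 1.97 and 1.69 in tomato and 0.21 and 0.44 in petunia (-1.50, SE 0.208, adjusted p = 0.000426). The tomato arrays of BCAT1 and RSI5 were on the potato side of every petunia array. Against the mean of pepper, tobacco and N. benthamiana, BCAT1 fell by 1.29 in tomato (adjusted p = 5.19e-05) and was higher by 0.47 in petunia (adjusted p = 0.0285).

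Further named clones higher in tomato were 1.96 for PPA1, a soluble pyrophosphatase, and 1.63 for CYCD3.3, a D-type cyclin. Both clones of R1 were called, at 2.30 and 1.86. Clone A of R1 had -1.65 and -1.21 in tomato and 0.47 and 1.27 in petunia, and here petunia stood apart. Against the mean of the 3 other species R1 clone A fell by 1.83 in petunia (adjusted p = 3.57e-05) and was higher by 0.47 in tomato (adjusted p = 0.0175). In SI1 the reverse held. Its clone C had 0.29 and 0.15 in tomato and 2.30 and 1.70 in petunia (1.78, SE 0.187, adjusted p = 9.6e-05), with tomato higher than the 3 others by 1.84 (adjusted p = 1.12e-05) and petunia at 0.07 from them (adjusted p = 0.796). All 4 clones of RGGA were higher in tomato, at 2.25, 2.03, 1.83 and 1.35, and in each of them petunia was below the 3 other species, with adjusted p = 0.00039 at most.

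**Figure D4:**
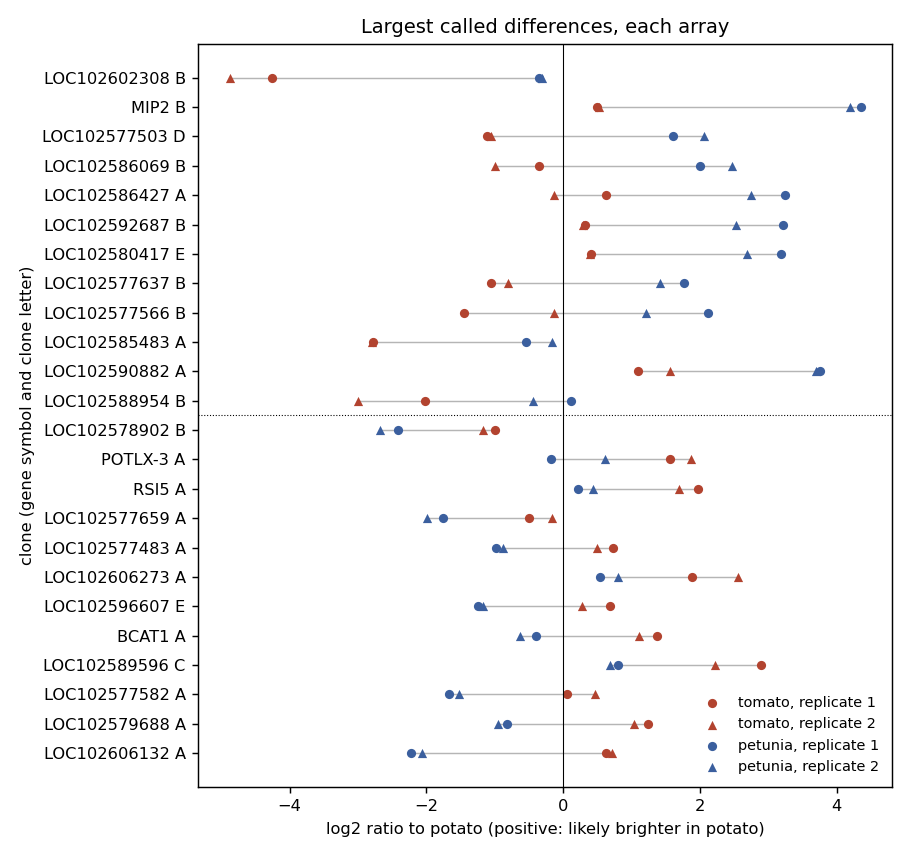
Log2 ratio to potato on each of the 4 arrays (x axis) for the clones with a single gene symbol and the largest called differences, 12 in each direction (y axis, symbol and clone letter); red is tomato, blue petunia, circles replicate 1 and triangles replicate 2. Tomato and petunia do not overlap in any of them, which follows largely from their choice as the largest called differences. MIP2 and LOC102602308 at the top have the widest gaps.

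Among genes known by a locus number only, LOC102602308 clone B had -4.26 and -4.87 in tomato and -0.36 and -0.31 in petunia, an 18.8-fold difference (4.23, SE 0.227, adjusted p = 1.13e-05), so that tomato was far above potato and petunia close to it. In LOC102577503 clone D, tomato had -1.11 and -1.06 and petunia 1.61 and 2.06 (2.92, SE 0.209), and tomato was higher than the 3 other species by 2.77 (adjusted p = 3.09e-06). LOC102586427 clone A gave 0.63 and -0.14 in tomato and 3.24 and 2.74 in petunia (2.74, SE 0.202). Of its 6 clones 5 were higher in tomato, from 2.13 to 2.74, and clone C was not called, at -0.27.

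Toward petunia, LOC102606132 led with 0.63 and 0.71 in tomato and -2.23 and -2.06 in petunia, a 7.05-fold difference (-2.82, SE 0.162, adjusted p = 4.89e-06). Tobacco and N. benthamiana, at means of -2.29 and -2.17, lay with petunia, and pepper, at 0.21, lay nearer to tomato. LOC102579688 followed at -2.02 (SE 0.186), LOC102577582 at -1.86 (SE 0.184) and LOC102589596 clone C at -1.81 (SE 0.195). Of the 679 clones with a single symbol, 206 were higher in tomato, 118 were higher in petunia and 355 were not called, so that 47.7% were called beside 41% of all clones, of which 18.3% were higher in tomato and 22.6% in petunia. Their median was 0.15, beside -0.12 for all clones.

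Several clones of 1 gene give a check within the array. At least 3 clones were tested for 72 genes. In 13 of these genes every tested clone was higher in tomato, as in RGGA, SI1, LOC102586069 (4 clones, 2.05 to 2.92) and LOC102580417 (6 clones, 1.51 to 2.55). In 3 genes every tested clone was higher in petunia, including LOC102589596 (3 clones, -1.81 to -0.95) and LOC102596607 (5 clones, -1.69 to -1.08). No clone was called in 19 genes, and 8 genes had clones called in both directions.

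**Figure D5:**
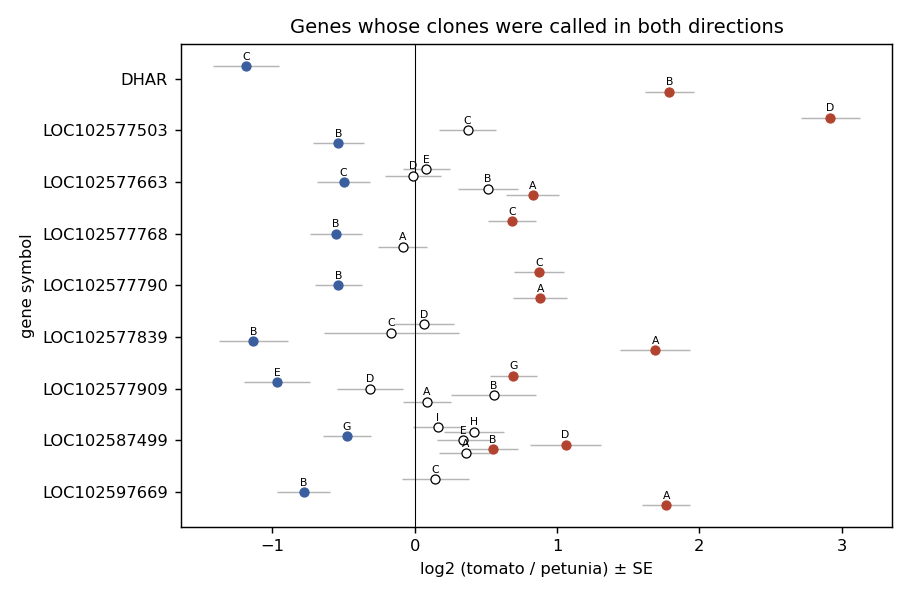
Log2 of tomato over petunia (x axis, bars: SE) for the tested clones, marked by letter, of the 9 genes (y axis) whose clones were called in both directions; red is higher in tomato, blue higher in petunia and open not called. DHAR, LOC102577503, LOC102577839 and LOC102597669 have the widest gaps between clones of 1 gene.

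Among these 8 genes, LOC102577839 clone A had -0.74 and -0.53 in tomato and 1.48 and 0.63 in petunia (1.69, SE 0.246, adjusted p = 0.000577), and clone B 2.74 and 1.53 in tomato and 1.61 and 0.38 in petunia (-1.13, SE 0.244, adjusted p = 0.00464). In clone B the species overlap across replicates but not within them. LOC102597669 gave 1.77 (SE 0.169) in clone A and -0.78 (SE 0.184) in clone B, and LOC102577503 gave 2.92 in clone D and -0.54 in clone B (adjusted p = 0.0362). The gaps were smaller in LOC102577790, with 0.88 and 0.87 against -0.54, in LOC102577909, with 0.69 against -0.97, in LOC102577663, with 0.83 against -0.50, in LOC102577768, with 0.68 against -0.55, and in LOC102587499, with 1.06 and 0.55 against -0.48. With any of the 4 arrays left out, both calls were kept in DHAR and LOC102577839, while in the 7 other genes at least 1 call was lost in some fit. Clones that share a symbol can differ in the part of the transcript they hold and can bind transcripts of related genes, and these cannot be told apart here.

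Whether a clone gave a value at all also differed. Both tomato arrays and no petunia array had a value for 155 clones, and both petunia arrays and no tomato array for 42. The authors dropped spots that failed in the potato channel too, so that a missing value is not an absent transcript, and the numbers of clones measured on the petunia arrays themselves were 917 apart. Of the 155, 4 had a gene name. NAD(P)H:QR, a quinone reductase, had -0.76 and -1.27 in tomato and a value on all arrays of pepper, tobacco and N. benthamiana, from -1.84 to 0.06. STP-1, at -1.84 and -1.73 in tomato, and GA2OX1, at -0.43 and -1.15, had values on some of the other arrays, as did a clone of DHAR that did not enter the test.

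Tomato and petunia were each set against the mean of pepper, tobacco and N. benthamiana over the 7823 clones measured on all 10 arrays. Both comparisons use the arrays of the 3 other species. In tomato 3631 clones were called (46.4%), with 1654 higher and 1977 lower, the median absolute difference was 0.397, and 866 clones were beyond 2-fold. In petunia 1843 were called (23.6%), with 897 higher and 946 lower, the median absolute difference was 0.257, and 331 were beyond 2-fold. Most of the mean comes from tobacco and N. benthamiana, both Nicotiana species. Petunia differed from these in 14.3% and 17.7% of clones, but from pepper in 32.1%. Tomato differed from pepper in 35.1%, from N. benthamiana in 37.6% and from tobacco in 40.1%. How far the makeup of the mean shaped the 2 counts was not tested. Without petunia replicate 1 the petunia count dropped to 448 and without petunia replicate 2 to 581, and the tomato count dropped to 2292 without tomato replicate 1. Of the 10 pairs of query species, tomato and petunia had the largest share of clones called, 41.0% against 40.1% for tomato and tobacco and 5.78% for tobacco and N. benthamiana. By the share within 2-fold the order was the other way, with 82.6% for tomato and tobacco and 83.6% for tomato and petunia. A high share called was not particular to this pair. Every pair with tomato had at least 35.1% called, and petunia's pairs with species other than tomato had at most 32.1%. These shares come from overlapping arrays and their order was not tested.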

How the data were processed

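Leaf RNA of 5 query species was hybridized with potato leaf RNA to potato cDNA arrays, 2 arrays per species. The authors extracted signals with GenePix 5.0, removed spots not found in 1 channel, with over 30% saturated pixels or under 70 µm across, subtracted the local background and applied quantile normalization in limma (of a version that no source used here gives). As deposited, each spot has a log2 ratio. For 99.9% of values this is minus log2 of a ratio in hundredths (within 0.002 of the ratio), so high positive values are coarse. Of 32448 spots, 1728 were empty and had no value. The layout of duplicate spots was worked out from sequence records listed for a pair of spots, and all 905 such pairs matched it. The 2 spots of a clone were averaged, and 11.4% of the clone values used came from 1 spot. Symbols were taken from GEO's platform annotation, which gives no description or sequence.

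Differences were fitted with limma 3.58.1 in R 4.3.3 on all 10 arrays, with 1 coefficient per query species and the replicate number as a block. The labels give 1 potato extract per replicate number, and the deviations from species means correlated between same-numbered arrays at 0.293 to 0.679 in the 10 pairs of species (0.326 for tomato and petunia), so the numbers pair the arrays. Benjamini-Hochberg adjustment covered all clones tested, with a threshold of 0.05. With 2 arrays per species the smallest exact two-sided permutation p is 0.333, so no such test was run. The number of arrays limits the precision. The fit was tested on simulated data. Counts and plots were made in Python 3.11.15 with pandas 2.3.3 and matplotlib 3.10.9.

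The comparison, its clones and the gene lists were chosen with earlier results of these data known, and the roles behind the lists were assigned after the symbols were seen. Named were the 12 largest called differences in each direction among clones with a single symbol (1 clone per gene), the 2 largest calls in each direction of each list, and every clone of genes with 3 or more clones tested and calls in both directions. Other clones of these genes, clones not called, and further clones with a name were added after their values were seen. Lists for sterols, glycoalkaloids and carotenoids, protein synthesis and tuber storage matched no symbol, and the 2 clones placed on the cell wall list had no value on all 4 arrays. The lists are not complete. PEST2, for example, was higher in tomato at 0.793 and was on none of them. Alternatives covered the block, the arrays fitted, centring, scaling, duplicate spots, missing values, the threshold, the variance moderation and leaving out each array. Single-channel signals were not used here.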

Additional observations from a re-analysis of the deposited data

How the results depend on the processing

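The number of calls depended on the replicate block and on single arrays. Without the replicate block 2016 clones were called, 1006 higher in tomato and 1010 in petunia, all of them among the 3667, and 2200 clones for tomato and 591 for petunia against the 3 other species. At an adjusted p under 0.01 there were 2148 calls, 1052 of them higher in petunia, and 2369 and 792 against the 3 other species. Leaving out 1 array gave 2030 to 3234 calls, 1059 to 1414 higher in tomato and 971 to 1820 in petunia, and 2292 to 3417 for tomato and 448 to 2099 for petunia against the 3 other species. The cause was not tested. The share of clones within 2-fold was 79.3% without replicate 2 and 84.5% without replicate 1. Counting clones seen on at least 1 array of 1 species and on neither of the other gave 358 for tomato and 158 for petunia, and requiring values on all 6 other arrays gave 11 and 5. Beyond 2-fold, the count moved by less than 1.5 times under each alternative, and no called clone changed sign. Centring moved the median difference to -0.089. Of the 79 named clones, 61 kept their side of the threshold without the block and 61 to 71 with 1 array left out.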
